A study of Mus musculus with 7 samples.

Results

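The genes described here were 34 genes of lipogenesis, triglyceride synthesis and lipid droplets, chosen by gene symbol as members of the pathway. All 34 were among the 14851 Ensembl genes of the expression table, and 32 reached the mean normalised count of 10 over the livers that was asked of genes entering the test. *Mogat1* and *Cidea* did not. By role they were 3 regulators, 4 genes of fatty acid synthesis, 8 of elongation and desaturation, 8 of esterification, 6 of the lipid droplet, 3 of lipolysis and 2 lipid carriers.

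The FL group was 4 livers of the genotype *Albumin-Cre; p53* FL/FL and the WT group 3 livers of the genotype *Albumin-Cre; p53* WT/WT. All were male C57BL/6J (N10) mice of about 70 days, and each was sampled 8 h after an intraperitoneal injection of CCl4, dissolved at 20% in corn oil and dosed at 1 mL/kg. Both genotypes carried Cre recombinase under the *Albumin* promoter, which is active in hepatocytes, so that floxed *Trp53* was deleted there in FL mice. Which other liver cells kept it is not stated. Some mice of the cohorts, in either genotype, carried a *Rosa26* LSL-tdRFP reporter, and the labels do not say which. No untreated livers were analysed here, so the values describe treated livers of either genotype and not a response to CCl4. Source names began with the same prefix in every WT label and with 2 different ones among the FL labels, so what the prefix marks, which the labels do not say, and the genotype cannot be told apart.

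Hepatocytes make fatty acids from acetyl-CoA, lengthen and desaturate them, join them to glycerol and store the resulting triglyceride in droplets coated by perilipins or export it in lipoproteins. The transcription factors SREBP-1c (from *Srebf1*) and ChREBP (from *Mlxipl*) switch on many of these genes in response to insulin and to sugar. Damage by CCl4 is known to be followed by a transient build-up of droplets in the liver, and the study followed this lipid by oil-red-O staining in the same genotypes. At 8 h it reported staining close to that of untreated livers, without a significant difference between the genotypes.

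Values per liver are listed throughout in the order of the replicate numbers, FL 1 to 4 and WT 1 to 3. *Trp53* stood at 131, 130, 217 and 110 normalised counts in FL livers and at 876, 688 and 831 in WT livers. The groups did not overlap, with a log2 fold change (FL minus WT) of -2.47 (SE 0.23, limma adjusted p = 0.0447, which ranged from 2.6e-05 to 1.0 over the alternative settings). Estimated depth ran from 11.9 to 19.5 M reads per liver. WT replicate 2 and, less so, FL replicate 3 stood apart from the other 5 livers on the first principal component of all genes, where they lay at 82.0 and 29.2 and the others between -25.6 and -19.1. Log2 fold changes of the tested genes are therefore given also without these livers, as the values without both. The 7 hepatocyte markers summed to 1442253 to 1939639 normalised counts in FL livers and 1236612 to 1502395 in WT livers. These sums leaned to FL livers, with ranges that overlapped. Of the 7 adipocyte markers 3 had a row: *Cfd* with 0 to 44 normalised counts, *Lipe* with 240 to 466 and *Pck1*, which hepatocytes also express, with 16203 to 52481. The list summed to 16627 to 52230 in FL livers and 26682 to 52721 in WT livers, and *Adipoq*, *Lep*, *Plin1* and *Retn* were not analysed here. Of the 7 macrophage markers 7 were highest in WT replicate 2, where they summed to 12391 against 4776 to 5405 in the other WT livers. For stellate cells this held for 5 of 6 markers (6569 against 2337 to 2657) and for proliferation for 8 of 8 genes (1233 against 123 to 170). The proliferation list was written knowing that this liver stood apart. None of these markers passed the adjusted threshold between the genotypes. In FL replicate 3 the same sums were 7648, 3074 and 340, against ranges of 4746 to 5979, 2471 to 2530 and 115 to 145 in the other FL livers. Their part in the results was not tested. In whole liver, fewer cells of a type and less RNA per cell cannot be told apart.

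The promoters of a few of the genes are shown as examples, not as a ranking. *Srebf1* and *Acaca* separated the genotypes. *Fasn* and *Thrsp* were among 9 genes more than 2-fold below the other WT livers in WT replicate 2. *Cidec* is the droplet gene with a p53 half-site, in the window shown. RefSeq promoter windows of 300 bases, from 250 before to 50 after a start site in GRCm38.p6, were found for 27 of the 34 genes, in 36 windows. *Scd1*, *Scd2*, *Elovl3*, *Fads1*, *Dgat1*, *Dgat2* and *Cidea* had none. Capitals mark the motifs searched on both strands: the sterol element TCACNCCAC, the E-box CACGTG, the NF-Y box CCAAT and a single p53 half-site, given by name. Full p53 binding elements were not searched for. The *Acaca* window and the second *Srebf1* window begin at starts inside the genes as annotated by GENCODE.
Srebf1 at chr11:60222532-60222831, minus strand: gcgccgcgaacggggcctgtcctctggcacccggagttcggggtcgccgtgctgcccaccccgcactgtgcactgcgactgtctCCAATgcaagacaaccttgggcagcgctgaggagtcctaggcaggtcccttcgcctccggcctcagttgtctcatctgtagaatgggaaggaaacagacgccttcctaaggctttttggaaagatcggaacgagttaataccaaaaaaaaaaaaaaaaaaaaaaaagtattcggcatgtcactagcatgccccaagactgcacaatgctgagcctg
Srebf1 at chr11:60210422-60210721, minus strand: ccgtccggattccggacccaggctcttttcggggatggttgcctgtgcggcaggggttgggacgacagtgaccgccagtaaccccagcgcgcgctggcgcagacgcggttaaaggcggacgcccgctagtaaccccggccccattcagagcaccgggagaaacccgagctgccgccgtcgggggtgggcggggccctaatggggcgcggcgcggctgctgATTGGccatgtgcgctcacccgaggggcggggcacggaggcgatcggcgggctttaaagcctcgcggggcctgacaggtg
Acaca at chr11:84195188-84195487, plus strand: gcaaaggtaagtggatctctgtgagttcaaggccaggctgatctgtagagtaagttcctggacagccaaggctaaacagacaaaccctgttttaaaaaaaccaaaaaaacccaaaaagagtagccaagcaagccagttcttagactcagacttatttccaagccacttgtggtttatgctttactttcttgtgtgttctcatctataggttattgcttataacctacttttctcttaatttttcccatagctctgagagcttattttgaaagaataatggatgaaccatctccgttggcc
Fasn at chr11:120824498-120824797, minus strand: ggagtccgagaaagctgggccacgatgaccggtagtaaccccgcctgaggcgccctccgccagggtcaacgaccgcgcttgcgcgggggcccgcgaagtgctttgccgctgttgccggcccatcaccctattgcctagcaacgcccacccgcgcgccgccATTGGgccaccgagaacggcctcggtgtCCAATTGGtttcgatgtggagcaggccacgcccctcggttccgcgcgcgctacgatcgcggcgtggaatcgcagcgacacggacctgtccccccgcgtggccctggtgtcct
Thrsp at chr7:97417501-97417800, minus strand: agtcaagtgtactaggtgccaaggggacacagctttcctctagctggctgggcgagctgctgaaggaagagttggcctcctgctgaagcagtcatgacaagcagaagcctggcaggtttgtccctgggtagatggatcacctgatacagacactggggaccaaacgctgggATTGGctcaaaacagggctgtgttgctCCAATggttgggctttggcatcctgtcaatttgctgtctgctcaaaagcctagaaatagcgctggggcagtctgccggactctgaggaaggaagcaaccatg
Cidec at chr6:113435711-113436010, minus strand: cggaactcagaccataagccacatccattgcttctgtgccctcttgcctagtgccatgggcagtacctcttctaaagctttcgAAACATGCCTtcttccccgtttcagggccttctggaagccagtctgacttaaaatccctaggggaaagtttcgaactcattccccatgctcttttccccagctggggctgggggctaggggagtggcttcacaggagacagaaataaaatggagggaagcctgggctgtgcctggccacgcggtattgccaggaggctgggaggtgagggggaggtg

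The windows differed in their motifs. The NF-Y box was in 14 of the 36 windows (38.9%, 13 genes) and in 37.4% of all 32851 promoter windows of the table. *Fasn* had it at -90, -62 and -59 from the start site, with the last 2 overlapping on opposite strands, and *Thrsp* at -79 and -52. The first *Srebf1* window shown had it at -166 and the second at -30. The E-box was in 4 of the 36 windows (11.1%), of *Elovl5*, *Lpin2*, *Mlxipl* and *Plin2*, and in 7.15% of all windows. The sterol element was in 1 window (2.78%), of *Mlxipl*, and in 1.24% of all windows. The p53 half-site was in 2 windows (5.56%), of *Agpat3* and *Cidec*, and in 8.36% of all windows, and the *Cidec* copy lay at -167. No motif lay in the *Acaca* window, which says only that these letters were not there.

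The level of the genes per kb of exon spanned several orders of magnitude. *Fabp1*, which carries fatty acids through the hepatocyte cytosol, led with 63233 normalised counts per kb on average over the 7 livers. *Scd1*, the desaturase that makes oleate from stearate, followed at 13017, and *Plin2*, the main coat protein of hepatocyte droplets, at 11338. The next, *Dgat2*, which adds the last fatty acid of triglyceride, had 2339 normalised counts per kb. *Acaca*, the cytosolic acetyl-CoA carboxylase, was low at 39.2 and *Scd2*, the desaturase of other tissues, at 24.9. *Pnpla3* (7.48), *Mogat1* (6.14) and *Cidea* (4.48), whose products are a droplet-bound lipase, a monoacylglycerol acyltransferase and a droplet fusion protein, were near the floor. Of the 33 pairs of neighbours in this order, 4 had ranges over the livers that did not overlap: *Fabp1* above *Scd1*, *Plin2* above *Dgat2*, *Gpam* above *Acaca* and *Scd2* above *Pnpla3*.

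**Figure D1:**
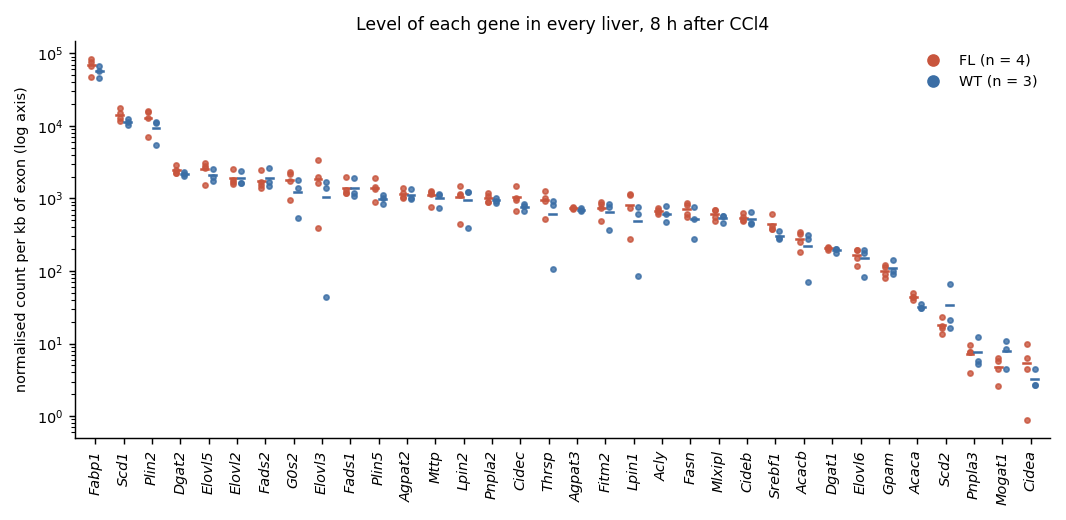
Normalised counts per kb of exon (log axis) of the 34 genes, ordered by the mean over the 7 livers, with a point for each FL (red) and WT (blue) liver and a dash for each group mean. *Fabp1*, at 63233 per kb, stands above *Scd1* and *Plin2*, and *Cidea*, at 4.48, is the lowest.

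None of the 32 tested genes passed an adjusted p of 0.05 between FL and WT livers (limma on log2(normalised count + 1) over 12545 genes, Benjamini-Hochberg adjustment), where 0.0159% of all tested genes did. The study's own DESeq2 comparison of these livers called more genes at that threshold. Unadjusted p-values under 0.05 occurred for 2 of 32 genes, *Srebf1* and *Acaca*, or 6.25%, against 3.2% of all tested genes. Both were higher in FL livers, against 1.59% of all tested genes called in that direction. The same 2 genes had groups that did not overlap with FL higher, against 2.77% of all tested genes, and 0 did so with FL lower, against 1.98%. The sign of the difference leaned one way: 28 of 32 log2 fold changes were positive against 51.6% of all tested genes, with a median of 0.19 against 0.01. Among genes with a mean of at least 50, 28 of 31 were positive against 56.0% of all genes. With quantile normalisation 26 of 32 were positive against 52.3%, with a median of 0.14. Total normalised counts were 15851380 to 16554427 in FL livers and 14123213 to 15538815 in WT livers, and their part in the lean was not tested. The count of positive values was 24 of 32 when WT replicate 2 was left out, against 47.8% of all genes. It was 24 also without FL replicate 3, WT replicate 1 or WT replicate 3, against 51.8% to 52.1% of all genes. The median was 0.12 without WT replicate 2 and 0.35 without WT replicate 1.

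**Figure D2:**
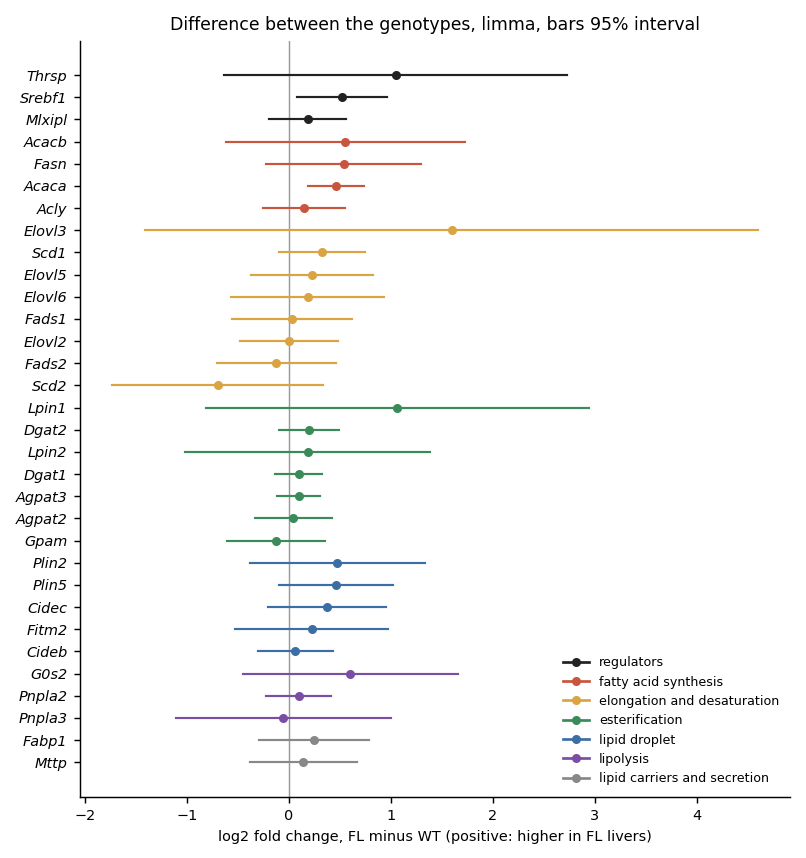
Log2 fold change of each tested gene, FL minus WT, with its 95% confidence interval from limma, grouped by role in color. Only the intervals of *Srebf1* (0.08 to 0.97) and *Acaca* (0.19 to 0.74) leave out zero, and those of *Thrsp*, *Elovl3* and *Lpin1* are the widest.

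Among the regulators, *Srebf1* (chromosome 11 of GRCm38, 60199089 to 60222581), which encodes SREBP-1, separated the genotypes. It had 2150, 2376, 3447 and 2118 normalised counts in FL livers, and 1576, 2034 and 1591 in WT livers. Every FL liver exceeded every WT liver, although FL replicate 4 was close to WT replicate 2. The mean was 2523 ± 627 (SD, n = 4) against 1734 ± 260 (SD, n = 3), with a log2 fold change of 0.52 (SE 0.19, limma unadjusted p = 0.0271, adjusted p = 0.999). Over all 35 ways to split the livers, the exact permutation p (two-sided) was 0.029, the smallest these groups allow. Without FL replicate 3 and WT replicate 2 the log2 fold change was 0.48 with a smaller error (SE 0.08) and limma's unadjusted p was 0.000276, with an adjusted p of 0.141. Without WT replicate 1 or without WT replicate 3 it was 0.46 in either fit (SE 0.23), and the unadjusted p was no longer under 0.05.

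*Thrsp*, which marks lipogenic liver and stimulates fatty acid synthesis, had the highest level per kb of the regulators. It had 2011, 2252, 1147 and 2815 normalised counts in FL livers, and 2031, 231 and 1802 in WT livers. WT replicate 2 was far below the other livers and FL replicate 3 was the next lowest. Its log2 fold change was 1.05 (SE 0.73, limma unadjusted p = 0.189), and it was 0.29 (SE 0.13) without those livers and 0.03 without WT replicate 2 alone. *Mlxipl*, encoding ChREBP, differed by a log2 fold change of 0.18 (SE 0.16) and had an interval of -0.19 to 0.56, with 0.16 (SE 0.15) without both.

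Of the fatty acid synthesis genes, *Acaca* (chromosome 11, 84129672 to 84401651) stood out. It makes malonyl-CoA, the substrate of fatty acid synthase. It had 684, 752, 743 and 857 normalised counts in FL livers, and 607, 521 and 521 in WT livers. The groups did not overlap, and neither FL replicate 3 nor WT replicate 2 lay outside the others. The log2 fold change was 0.46 (SE 0.12, limma unadjusted p = 0.00433, adjusted p = 0.999) for means of 759 ± 72.0 (SD, n = 4) and 550 ± 49.7 (SD, n = 3). It stayed at 0.44 (SE 0.12, limma unadjusted p = 0.00512) without those livers. Of the 36-base stretches of *Acaca* transcripts 31.0% also occur in the pseudogene *Gm5182*, so reads there cannot be assigned to *Acaca* alone and its count is uncertain.

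*Acly*, which makes cytosolic acetyl-CoA from citrate, had the highest level per kb of its role. Its normalised counts were 3858, 3713, 3231 and 3394 in FL livers, and 4095, 2463 and 3242 in WT livers. They overlapped throughout, with a log2 fold change of 0.15 (SE 0.17, interval -0.25 to 0.55) that was 0.00 (SE 0.11) without both. *Fasn*, fatty acid synthase, had 9362, 8771, 6767 and 6069 normalised counts in FL livers and 8402, 3023 and 5694 in WT livers. WT replicates 2 and 3 lay below all FL livers, WT replicate 2 by the wider margin. The log2 fold change was 0.54 (SE 0.33), 0.14 without WT replicate 2 and 0.20 (SE 0.20) without it and FL replicate 3. *Acacb*, the mitochondrial acetyl-CoA carboxylase, had 674 normalised counts in WT replicate 2 and 1760 to 3342 elsewhere, and its log2 fold change of 0.55 (SE 0.51) was 0.05 (SE 0.13) without those livers.

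**Figure D3:**
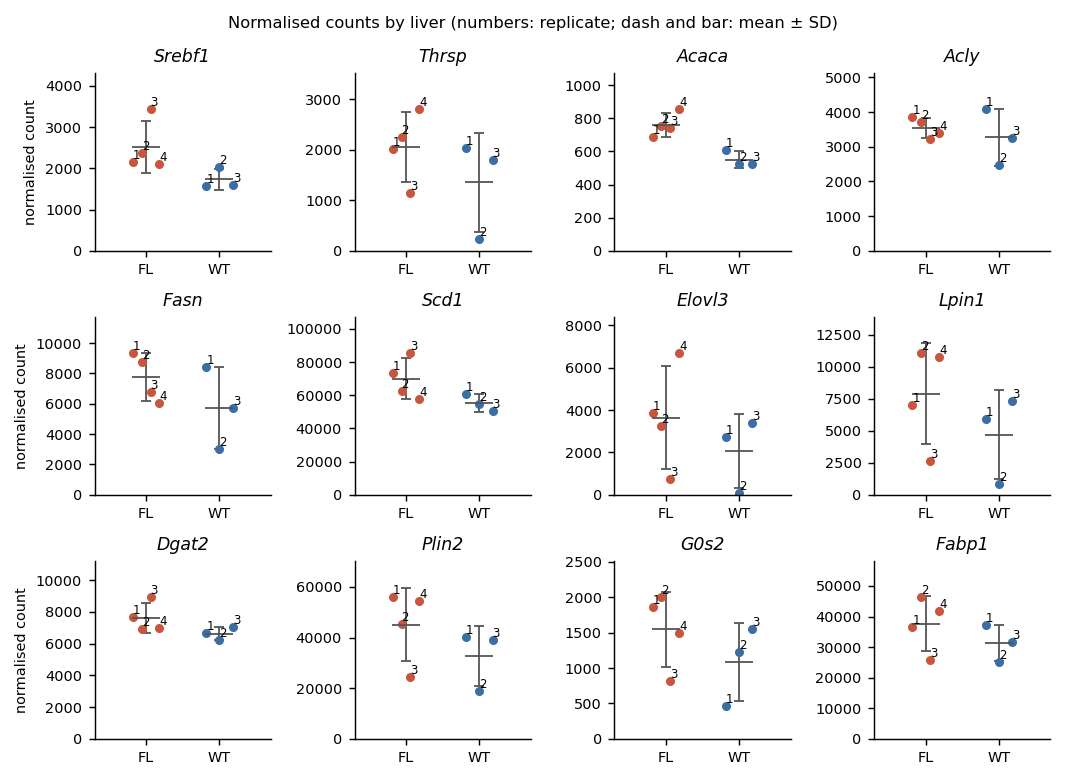
Normalised counts of 12 genes in each liver, with replicate numbers beside the points and the group mean ± SD (FL n = 4, WT n = 3). *Srebf1* and *Acaca* do not overlap between the groups. In *Thrsp*, *Elovl3*, *Lpin1* and *Plin2* the lowest points are FL replicate 3 and WT replicate 2.

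*Scd1* led the elongation and desaturation genes. It had 73426, 62818, 85610 and 57883 normalised counts in FL livers, and 60830, 54815 and 50378 in WT livers. FL replicate 3 was the highest and only FL replicate 4 fell among the WT livers. The log2 fold change of 0.33 (SE 0.18, limma unadjusted p = 0.111) went with an exact permutation p of 0.114, and was 0.22 (SE 0.14) without FL replicate 3 and WT replicate 2. *Elovl3*, an elongase expressed in male liver, ranged most of the 34 genes, with 3861, 3227, 762 and 6708 normalised counts in FL livers and 2738, 87 and 3372 in WT livers. WT replicate 2 and FL replicate 3 were its lowest livers. Between the genotypes *Elovl3* differed by a log2 fold change of 1.60 (SE 1.30), -0.10 without WT replicate 2 and 0.52 (SE 0.25) without both.

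Unadjusted p-values of the other elongases and desaturases were all above 0.05. *Elovl5*, *Elovl6* and *Elovl2*, which extend polyunsaturated, saturated and long polyunsaturated chains, had log2 fold changes of 0.23 (SE 0.26), 0.19 (SE 0.32) and 0.00 (SE 0.21). Without both they were 0.33 (SE 0.12), -0.30 (SE 0.18) and 0.05 (SE 0.08). *Fads1* and *Fads2*, the delta-5 and delta-6 desaturases, had 0.03 (SE 0.25) and -0.13 (SE 0.25), and 0.11 (SE 0.09) and -0.05 (SE 0.10) without both. They were high in FL replicate 3 and WT replicate 2 together, with *Fads1* at 9516 and 9167 against 5247 to 6256 in the other livers. *Scd2* was the largest negative difference, -0.70 (SE 0.45), with 357 normalised counts in WT replicate 2 and 74 to 129 in the others. It was -0.10 (SE 0.23) without WT replicate 2, -1.08 (SE 0.44) without WT replicate 3 and -0.25 (SE 0.19) without both.

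*Dgat2* led the esterification genes per kb. It had 7706, 6912, 8962 and 6977 normalised counts in FL livers, and 6652, 6208 and 7057 in WT livers. WT replicate 3 lay above 2 FL livers, and the log2 fold change was 0.20 (SE 0.13, interval -0.10 to 0.49), with 0.07 (SE 0.09) without both. *Lpin1*, a phosphatidate phosphatase that makes diacylglycerol and a coactivator of fasting genes, had 7037, 11112, 2676 and 10779 in FL livers and 5956, 818 and 7364 in WT livers. The same 2 livers were again the lowest, and the log2 fold change went from 1.06 (SE 0.81) to 0.51 (SE 0.19, limma unadjusted p = 0.0221) without them, and to 0.06 without WT replicate 2 alone. *Lpin2*, its paralog, had 0.19 (SE 0.52) and 0.01 (SE 0.13) without both. *Gpam*, which starts glycerolipid synthesis, had -0.13 (SE 0.21) and then 0.17 (SE 0.13). *Agpat2* and *Agpat3*, which add the next acyl chain, had 0.04 (SE 0.16) and 0.10 (SE 0.09), and *Dgat1*, the other final acyltransferase, 0.10 (SE 0.10). Without both these were 0.09 (SE 0.09), 0.13 (SE 0.08) and 0.05 (SE 0.09). *Agpat3* and *Dgat1* were among the steadiest genes here, with the highest liver 1.15 and 1.22 times the lowest. *Mogat1* had 9, 7, 4 and 10 normalised counts in FL livers and 13, 7 and 17 in WT livers, too low to test with all livers, and its log2 fold change was -0.73 (SE 0.38) without both.

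The droplet genes were led by *Plin2*. It had 56167, 45515, 24442 and 54517 normalised counts in FL livers, and 40094, 18932 and 39055 in WT livers. FL replicate 3 fell below 2 WT livers, and FL replicates 1, 2 and 4 were above all WT livers. The log2 fold change was 0.47 (SE 0.37, limma unadjusted p = 0.239) with all livers and 0.39 (SE 0.12, limma unadjusted p = 0.011) without FL replicate 3 and WT replicate 2, but 0.12 without WT replicate 2 alone and 0.74 without FL replicate 3 alone. *Plin5*, which binds droplets to mitochondria, had 0.46 (SE 0.24) and then 0.56 (SE 0.14), and *Cidec*, which fuses droplets, had 0.37 (SE 0.25) and then 0.46 (SE 0.17). *Fitm2*, which helps droplets bud from the endoplasmic reticulum, had 0.22 (SE 0.32) and 0.03 (SE 0.10). *Cideb*, which also serves lipoprotein lipidation, had 0.06 (SE 0.16) and 0.16 (SE 0.09), and 76.3% of its exon bases overlap *Nop9* on the opposite strand, so its count is uncertain where the strand was not used. *Cidea* had 5, 7, 1 and 11 normalised counts in FL livers and 3, 5 and 3 in WT livers.

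*G0s2*, the inhibitor of adipose triglyceride lipase, had the highest level per kb of the lipolysis genes. It had 1863, 2009, 817 and 1499 normalised counts in FL livers, and 468, 1230 and 1545 in WT livers. WT replicate 1, rather than replicate 2, was the lowest. The log2 fold change was 0.60 (SE 0.45, limma unadjusted p = 0.22) and 1.06 (SE 0.39) without FL replicate 3 and WT replicate 2, but it was 0.09 without WT replicate 1. *Pnpla2*, that lipase, had 0.10 (SE 0.14), and *Pnpla3* had -0.05 (SE 0.46) at 6 to 19 normalised counts per liver. Without both they were 0.22 (SE 0.12) and 0.26 (SE 0.46).

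*Fabp1* had 36691, 46499, 25717 and 41854 normalised counts in FL livers, and 37086, 25265 and 31662 in WT livers. The groups overlapped, with FL replicate 3 and WT replicate 2 the lowest of their genotypes and a log2 fold change of 0.25 (SE 0.23), or 0.28 (SE 0.13) without both. *Mttp*, which loads triglyceride onto apolipoprotein B for export, had 0.14 (SE 0.23), or 0.10 (SE 0.08) without both, and was likewise lowest in WT replicate 2, at 4554 normalised counts, and FL replicate 3, at 4776.

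With FL replicate 3 and WT replicate 2 left out, 33 of the genes could be tested. None of them had an adjusted p under 0.05, where 0.0487% of 12325 genes did. Unadjusted p-values under 0.05 with FL higher occurred for 8 of 33, or 24.2%, against 4.57% of all genes: *Srebf1*, *Acaca*, *Elovl5*, *Lpin1*, *Plin2*, *Plin5*, *Cidec* and *G0s2*. None was lower in FL, against 5.17% of all genes. Log2 fold changes were positive for 29 of 33 genes, against 47% of all genes, with a median of 0.16 against -0.01. Groups of these 5 livers did not overlap with FL higher for 10 of 33 genes, against 12.8% of all genes, and with FL lower for 1, *Mogat1*, against 14.6%.

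In WT replicate 2, 9 of 32 genes were more than 2-fold below the mean of the other WT livers, or 28.1%, against 7.45% of all tested genes. *Elovl3* was at 2.85% of that mean, *Thrsp* at 12.1%, *Lpin1* at 12.3%, *Acacb* at 23.7% and *Lpin2* at 32.2%, and *Fasn*, *Elovl6*, *Fitm2* and *Plin2* lay between 42.9% and 47.8%. More than 2-fold above it were 2 genes, *Scd2* and *Pnpla3*, or 6.25% against 11.8% of all tested genes. In FL replicate 3, 6 of 32 genes were more than 2-fold lower than in the other FL livers, or 18.8% against 2.41% of all tested genes, and 0 were more than 2-fold higher against 4.46%. These were *Elovl3*, *Lpin1*, *Lpin2*, *G0s2*, *Plin2* and *Thrsp*, at 16.6% to 48.6% of the mean of the other FL livers. *Srebf1* went the other way in FL replicate 3, at 156% of that mean, beside *Fads1* (162%), *Fads2* (160%) and *Elovl2* (149%). The 8 male-biased liver genes, of which *Elovl3* is one, summed to 13209 in WT replicate 2 against 64587 to 65234 in the other WT livers. All 8 were lowest there, and the list was written knowing that this liver stood apart. In FL replicate 3 they summed to 45674 against 69861 to 84809, with *Mup3* at 26230 against 51688 to 60969. *Hsd3b5*, *Elovl3*, *Cyp7b1* and *Slco1a1* were also the lowest of the FL livers there. *Mup20* (9781) and *C6* (3814) were instead highest of all livers in FL replicate 3, and *Cyp4a12a* (1025) was above FL replicate 4 (789). The part of these genes in the values above was not tested.

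**Figure D4:**
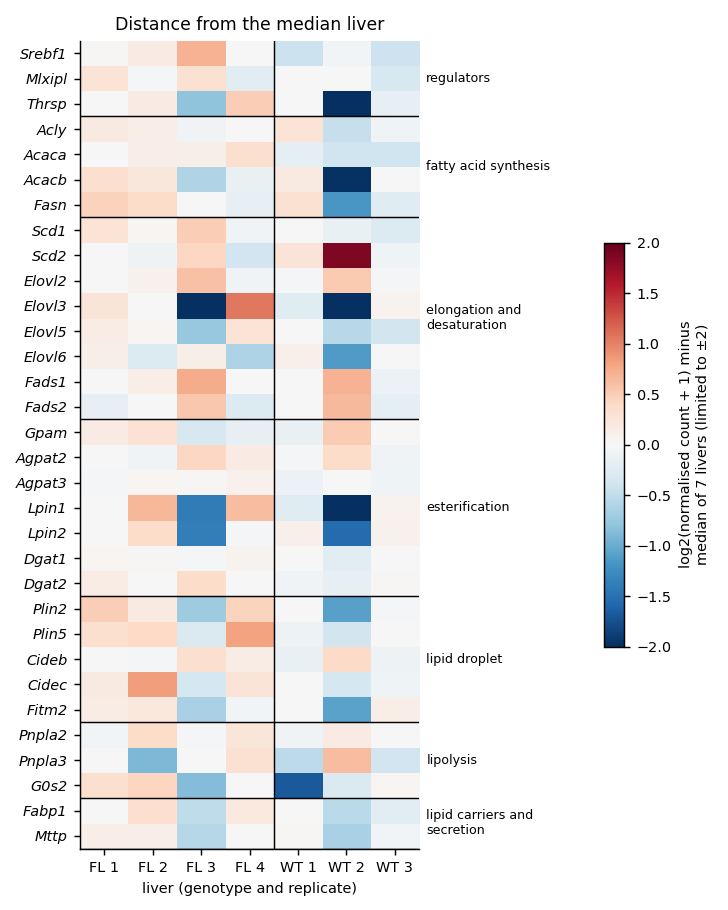
Distance of each tested gene in each liver from the median of the 7 livers, in log2(normalised count + 1), limited to 2 in either direction, with the roles at the right. WT replicate 2 is blue in *Thrsp*, *Acacb*, *Elovl3*, *Lpin1* and *Lpin2*, FL replicate 3 is blue in *Elovl3*, *Lpin1* and *Lpin2*, and both are red in *Fads1*, *Fads2* and *Elovl2*.

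**Figure D5:**
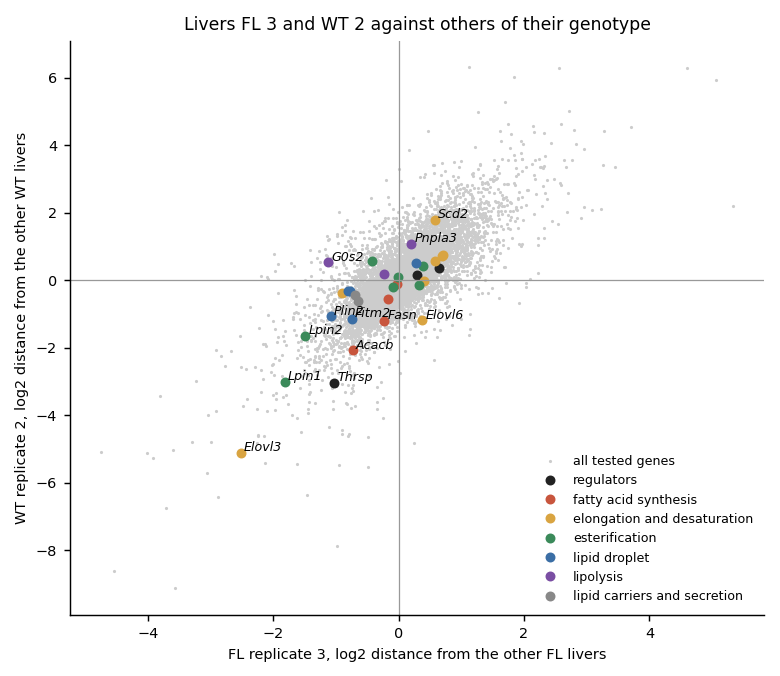
Log2 distance between FL replicate 3 and the remaining FL livers (x axis) and between WT replicate 2 and the remaining WT livers (y axis), for the 32 genes in color by role and all 12545 tested genes in grey. Genes more than 2-fold away in either liver are named, and *Elovl3*, *Lpin1*, *Thrsp*, *Lpin2* and *Plin2* lie low in both.

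Further genes of the pathway, 75 in a list that also held the partners of the regulators and enzymes of transport, gave 71 tested genes. None passed an adjusted p of 0.05. Unadjusted p-values under 0.05 occurred for 4 with FL higher (5.63%, against 1.59% of all genes) and 2 with FL lower (2.82%, against 1.6%). *Plin4*, a perilipin of small droplets, had 439, 618, 393 and 566 normalised counts in FL livers and 331, 199 and 306 in WT livers. The groups did not overlap, and the log2 fold change was 0.86 (SE 0.23, limma unadjusted p = 0.00545), with 0.75 (SE 0.15) without both FL replicate 3 and WT replicate 2. *Elovl7*, an elongase of saturated chains, had 121, 107, 158 and 148 in FL livers and 216, 214 and 163 in WT livers. Every FL liver was lower, with a log2 fold change of -0.57 (SE 0.19) and of -0.59 (SE 0.18) without both.

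*Ces1g*, a carboxylesterase of lipid turnover, had 589, 559, 539 and 704 normalised counts in FL livers and 804, 1431 and 694 in WT livers. WT replicate 2 was far above the rest, and the log2 fold change of -0.64 (SE 0.24) was -0.33 (SE 0.14) without it and -0.28 (SE 0.12) without both. *Ces1f*, another liver carboxylesterase, had 2650, 2676, 2218 and 2898 against 2102, 1816 and 2314. Only WT replicate 3 exceeded an FL liver, FL replicate 3, and the log2 fold change was 0.33 (SE 0.13) and 0.31 (SE 0.09) without both. *Insig2*, which holds SREBP in the endoplasmic reticulum, had 4031, 4891, 3443 and 7445 against 3155, 3197 and 3007. These groups did not overlap, with a log2 fold change of 0.60 (SE 0.24), 0.39 without FL replicate 4, the highest liver, and 0.78 (SE 0.21) without both. *Mgll*, which splits monoacylglycerol, had 5827, 5920, 4213 and 5218 against 4929, 3050 and 3798. FL replicate 3 lay below WT replicate 1, and the log2 fold change was 0.45 (SE 0.19), 0.28 without WT replicate 2 and 0.38 (SE 0.12) without both.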

How the data were processed

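Per the labels and the study's methods, polyadenylated liver RNA was sequenced from stranded libraries. The authors aligned the reads with TopHat2 (version 2.0.13) and Bowtie2 (version 2.2.6.0), counted them per gene and scaled the counts with DESeq2. Their methods name HTSeq for the counting, while the labels list HTSeq and featureCounts. Labels and methods write a human build name with 75 for this mouse genome, which was read here as Ensembl release 75. What they deposited is a table of normalised counts in whole numbers, handled here as a score because rounding hides single reads, so no count test was run. The strand setting of the counting is not given in the sources used here. Depth was estimated from the spacing of low values (0.812 to 1.385 normalised counts per read).

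The 34 genes, their roles and the further pathway list were chosen with earlier results of these data known. So were the proliferation and male-biased lists, written knowing that WT replicate 2 and FL replicate 3 stood apart. The genotypes were compared with limma (version 3.58.1, R version 4.3.3), using log2(normalised count + 1) and a trend of variance with level. The test covered the 12545 genes whose mean reached 10, with Benjamini-Hochberg adjustment. It was also run on simulated data, in which the spread of a gene was capped at the median spread. Its p-values measure the spread between these livers. Genes given in every liver were those with an unadjusted p under 0.05 or groups that did not overlap, the gene of highest level per kb of exon in each role, and further pathway genes by smallest unadjusted p. *Fasn*, *Elovl3*, *Lpin1*, *Mogat1* and *Cidea* were added after their values were seen. Exon lengths and positions came from GENCODE vM21 of GRCm38. The p53 half-site was added to the 3 motifs chosen at first. Figures were drawn with Python (version 3.11.15) and Matplotlib (version 3.10.9). Livers with the same replicate number were not treated as pairs, and the labels name no pairs. The study matched mice by age and litter where it could, without saying which livers were matched. Across genes their deviations from the group means correlated at 0.44, -0.48 and -0.66 for replicates 1, 2 and 3. FL replicate 3 and WT replicate 2 stood apart and shift the group means, so these correlations cannot decide whether livers were paired.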

Additional observations from a re-analysis of the deposited data

Results flagged for a closer look

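Of 41 genes examined in the 4 FL livers, 1 had a liver far from the others. These were the 34 genes, the 6 further pathway genes given in every liver and *Trp53*. *Fads1*, the delta-5 desaturase, had 9516 normalised counts in FL replicate 3 against 5656 to 6256 in the other FL livers, a gap of 0.845 of the group's range, above the 95% critical value of Dixon's test. Chance flags about 1 in 20 such groups. Some further pathway genes outside the 41 also exceeded that value, among them *Slc27a5* (0.905) and *Nr1h3* (0.902). WT livers, 3 in number, were not examined in this way.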

How the results depend on the processing

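The alternatives were pseudocounts of 0.5 and 5, no filter, a mean of at least 50, quantile normalisation, trimmed-mean (TMM) scaling, robust limma, limma with no trend, a block for the replicate number, leaving out each liver, and FL replicate 3 and WT replicate 2 left out together. No gene of the 34, and none of the further pathway genes, passed the adjusted threshold under any of them. *Acaca* (0.40 to 0.54) and *Srebf1* (0.36 to 0.64) kept a positive log2 fold change in all 18 fits. The number of the 34 genes with an unadjusted p under 0.05 was 1 with quantile normalisation (*Acaca*), 2 to 6 as single livers were left out (6 without FL replicate 3; *Acaca* and *Fasn* without WT replicate 1, and *Acaca* and *Scd2* without WT replicate 3, where *Srebf1* was not among them) and 8 without both livers. Over all tested genes such p-values numbered 410 of 12545 with quantile normalisation. They numbered 248 of 12589 to 739 of 12384 as single livers were left out (519 of 12540 without FL replicate 3), and 1200 of 12325 without both. Groups did not overlap, in either direction, for 2 to 7 genes as single livers were left out. The share over all genes was not computed for those fits, so this range is not a result about these genes. Without both livers, groups did not overlap for 12 of 34, counting the untested *Cidea*. Of all genes, 12.8% did not overlap with FL higher and 14.6% with FL lower. The median log2 fold change was 0.12 to 0.35 as single livers were left out, with the highest value without WT replicate 1.

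With the replicate number as a block, 1 gene had an unadjusted p under 0.05 (*Srebf1*), 0 of all genes passed the adjusted threshold, and *Trp53* was at -2.35. Whether the replicate numbers pair the livers is not known.

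Genes past the adjusted threshold among all tested numbered 0 with a pseudocount of 5, a mean of at least 50 or no trend, 1 with quantile normalisation, 0 to 5 as single livers were left out and 6 without both. *Trp53* missed the threshold at -2.44 with a pseudocount of 5, at -2.47 with a mean of at least 50 or no trend, and at 6 of the 7 fits that left out 1 liver, which ran from -2.68 to -2.35, and was -2.78 without both livers. The cause of these moves was not tested.

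Signs turned with quantile normalisation for *Agpat2* (-0.00071), *Elovl2* (-0.097), *Fads1* (-0.039) and *Pnpla3* (0.17), and without both livers for *Elovl6* (-0.30), *Gpam* (0.17) and *Pnpla3* (0.26). They turned as single livers were left out for *Acacb* (-0.14 to 0.94), *Acly* (-0.042 to 0.33), *Agpat2* (-0.054 to 0.19), *Cideb* (-0.029 to 0.23), *Elovl2* (-0.14 to 0.19), *Elovl3* (-0.10 to 2.53), *Elovl6* (-0.21 to 0.41), *Fads1* (-0.14 to 0.28), *Fads2* (-0.30 to 0.12), *Fitm2* (-0.16 to 0.45), *Gpam* (-0.26 to 0.067), *Lpin2* (-0.36 to 0.56), *Mttp* (-0.067 to 0.31) and *Pnpla3* (-0.27 to 0.31). Among unadjusted calls over all genes, the share higher in FL was 49.9%, and 38.7% with no filter on low values. Depth sets the precision of genes near the floor, such as *Pnpla3*, *Mogat1* and *Cidea*.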
